A study of Mus musculus with 14 samples.

Results

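Secondary neurospheres are balls of neural stem and progenitor cells that grow again in suspension when primary spheres are dissociated and replated. Spheres from the dorsal forebrain were compared with spheres from the ventral forebrain, both taken from wild-type CD-1 mouse embryos at E14.5, with 2 samples of each region. These 4 samples, chosen by their titles, are 4 of the 14 in the series, and each was hybridised to 1 Affymetrix Mouse Genome 430 2.0 array. The samples of each region carry the numbers 1 and 2, so that the regions were compared on average and also within equal number. Adult CD-1 wild-type spheres from the neocortex (3 samples) and the striatum (3 samples) serve as a later regional pair, and adult subventricular zone spheres (3 samples) and an E14.5 spinal cord sample complete the set. Of 45101 probe sets, 35211 were tested, those detected at p under 0.05 on at least 2 of the 14 arrays, and a named gene could be assigned to 28545 of them, which cover 14716 genes. Nothing in the labels tells if the samples of 1 region came from separate litters or cultures, or if animals were pooled. The labels also do not say how the dorsal and ventral pieces were cut. The p-values therefore measure only the spread between samples. For the regional test, that spread was pooled within groups over all 14 arrays, the adult ones included. In spheres, as in any mixed sample, fewer cells of a type and less RNA per cell cannot be told apart.

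The dorsal forebrain, or pallium, gives rise to the glutamatergic projection neurons of the cortex, and its progenitors use transcription factors of the Emx, Pax6, Neurogenin and Dmrt families. The ventral forebrain, or subpallium, holds the ganglionic eminences, whose progenitors use Dlx, Gsx and Lhx factors and produce the GABAergic neurons of the striatum, the cortical interneurons and the cholinergic neurons of the basal forebrain. Wnt and BMP signals from the dorsal midline and Sonic hedgehog from ventral sources set up this axis in the embryo. Neurospheres are grown away from those signals, so regional genes in cultured spheres would show what the cells still express there. In each region, however, the sample with the higher number carried far more erythroid and endothelial signal than the other. It also carried far less Egfr signal, and the values are given below. Whether those samples hold expanded cultures to the same degree as the others was not tested. Their regional genes are therefore not read as expression kept in culture.

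The upstream sequences of 4 genes that differed between the regions are shown first, because these genes are 4 of the limma calls between regions. The calls rest on signals, not on these sequences. Hopx encodes a small homeodomain-only protein that does not bind DNA by itself, Nfix a nuclear factor I transcription factor of neural progenitors, Lhx8 a LIM-homeodomain factor needed for forebrain cholinergic neurons, and Six3 a homeodomain factor of the anterior brain and the striatum. Each line gives the 250 bases before the first listed transcript start, from RefSeq on GRCm38.p6 and read along the gene's own strand. Capitals mark TAATTA, the core site of many homeodomain factors, or the E-box CAGATG on either strand, which Neurogenin-type factors bind.
Hopx (chr5:77115124-77115373, minus strand): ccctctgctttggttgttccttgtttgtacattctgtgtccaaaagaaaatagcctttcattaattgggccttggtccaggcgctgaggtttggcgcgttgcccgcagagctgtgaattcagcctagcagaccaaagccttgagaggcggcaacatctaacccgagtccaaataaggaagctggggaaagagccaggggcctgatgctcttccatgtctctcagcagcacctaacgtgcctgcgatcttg
Nfix (chr8:84780083-84780332, minus strand): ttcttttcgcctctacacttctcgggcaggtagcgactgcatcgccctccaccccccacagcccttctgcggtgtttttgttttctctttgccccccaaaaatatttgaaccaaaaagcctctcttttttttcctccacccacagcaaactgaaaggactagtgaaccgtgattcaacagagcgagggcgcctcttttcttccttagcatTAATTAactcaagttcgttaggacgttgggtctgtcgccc
Lhx8 (chr3:154330561-154330810, minus strand): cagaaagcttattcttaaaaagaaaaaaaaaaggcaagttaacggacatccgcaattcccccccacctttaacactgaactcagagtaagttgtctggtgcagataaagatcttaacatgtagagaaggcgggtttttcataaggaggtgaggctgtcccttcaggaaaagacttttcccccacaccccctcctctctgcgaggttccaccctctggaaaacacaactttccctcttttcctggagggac
Six3 (chr17:85620584-85620833, plus strand): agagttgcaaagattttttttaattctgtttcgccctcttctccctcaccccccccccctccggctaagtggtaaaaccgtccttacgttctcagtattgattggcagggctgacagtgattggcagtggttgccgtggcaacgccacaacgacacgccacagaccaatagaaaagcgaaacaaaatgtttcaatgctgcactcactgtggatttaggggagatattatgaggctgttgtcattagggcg

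Of 15 genes looked up (the named genes among the limma calls other than Mbp, and the 8 genes used to read the regions), 14 had a listed promoter. TAATTA was present in 2 of the 14, Nfix and Tbr1, and CAGATG on neither strand in any. Among all 32851 promoters listed, 4.84% held TAATTA and 14.4% held CAGATG on either strand, in the same 250 bases. A match describes the letters of the window, and its absence says nothing about a factor. The Lhx8 window is also the start region of AI606473, a transcript read from the opposite strand. Their starts lie 261 bases apart on chromosome 3, and the 2 upstream windows share 240 bases.

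The samples numbered 2 stood apart from those numbered 1. In a principal component analysis of the 4 arrays, the first component held 61.5% of the variance and separated the numbers, with scores of 74.4 (dorsal) and 84.9 (ventral) for number 2 and of -85.7 (dorsal) and -73.6 (ventral) for number 1. The second held 23.5% and separated the regions, with scores of -21.2 and -68.3 for the dorsal arrays and of 27.4 and 62.2 for the ventral arrays. The sources used here do not say what the numbers stand for. In the authors' metrics table, the name of 1 dorsal array shares a code with that of 1 ventral array, and the names of the other dorsal and ventral arrays share another with the spinal cord array. The names carry no sample number. The median absolute difference between numbers was 0.47 on the log2 scale in dorsal and 0.49 in ventral spheres. Between regions it was 0.29 within number 1 and 0.34 within number 2.

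Markers of cells other than neural cells moved with the number. The summed signal of 3 erythroid genes was 26617 in dorsal sample 2 and 27060 in ventral sample 2, against 233 and 193 in the samples numbered 1. For 8 endothelial genes the sums were 9033 (dorsal) and 5720 (ventral) for number 2, against 328 and 399 for number 1. For 12 microglia and macrophage genes they were 8737 and 5970, against 735 and 821. All 3 lists were thus far higher in both samples numbered 2, and the spinal cord array, with sums of 24151, 10032 and 14858, resembled those samples. Mesenchymal and choroid plexus genes behaved otherwise. The 10 mesenchymal genes summed to 3499 and 35961 in dorsal spheres and to 2984 and 3921 in ventral spheres, and the 7 choroid plexus genes to 6139 and 35033 in dorsal and to 2414 and 1171 in ventral spheres. Among the 4 forebrain arrays, dorsal sample 2 held the most of both. The Y-linked genes Eif2s3y, Kdm5d and Uty had signals of 3517.9, 2307.6 and 461.5 in dorsal sample 2 and of 54.6, 28.4 and 4.3 in ventral sample 2, while both samples numbered 1 lay from 232.7 to 4977.5 over these genes. Xist, which is expressed from the inactive X, was between 10508.4 and 16863.4 on all 4 arrays. The part of these differences in the regional results was not tested.

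**Figure D1:**
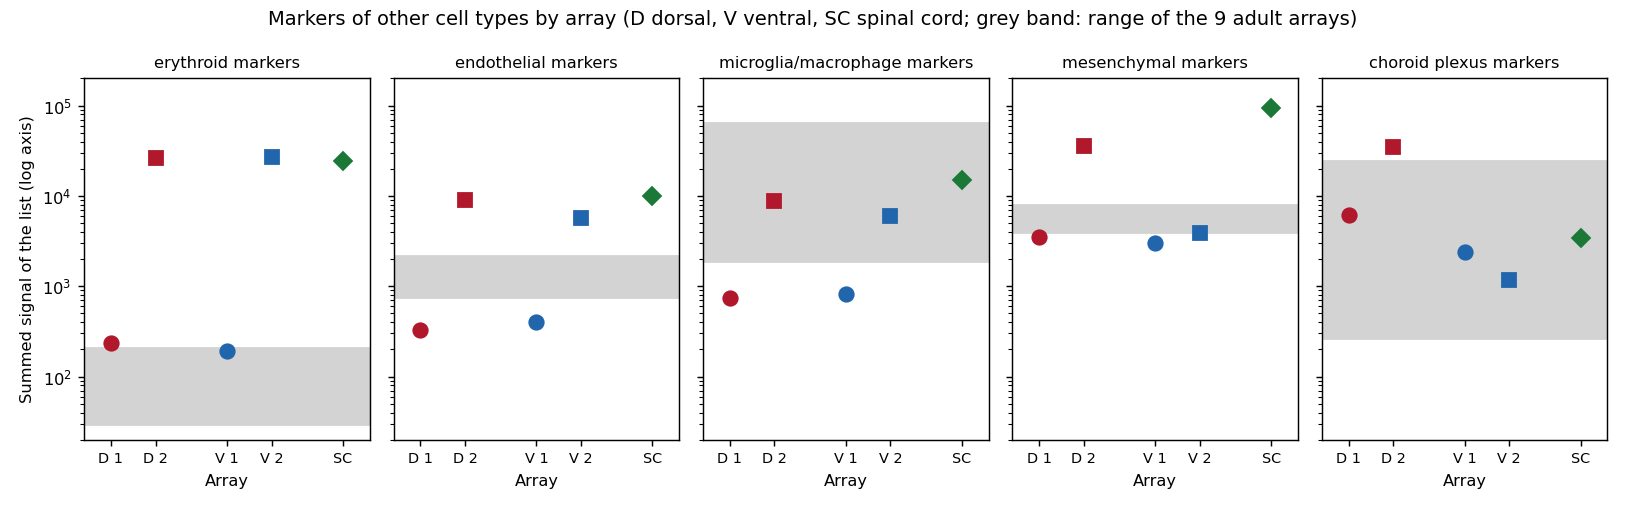
Summed deposited signal (log axis) of 5 marker lists on the dorsal (D, red) and ventral (V, blue) arrays of number 1 (circles) and number 2 (squares) and on the spinal cord array (SC, green), with the range of the 9 adult arrays as a grey band. Erythroid sums were 26617 and 27060 on the arrays numbered 2, against 233 and 193 on those numbered 1, and the mesenchymal and choroid plexus sums were highest among the 4 forebrain arrays in dorsal sample 2.

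The limma test called 14 of 35211 probe sets at an adjusted p under 0.05 (0.0398%), 6 higher in dorsal spheres (0.017%) and 8 lower (0.0227%). The 6 higher were probe sets of Hopx, Rlbp1, Nfix, Emid1, Alcam and Mbp. The 8 lower were those of Lhx8, its neighbour AI606473, Six3, Kndc1, Abat and Thsd7a, and 2 with no gene named here. At an unadjusted p under 0.05 there were 1711 (4.86%). With quantile normalization, and also with the values as deposited, the calls were 1 higher and 5 lower in dorsal spheres. Both times these were Hopx, Lhx8, Six3, Abat, Thsd7a and 1 of the probe sets with no gene named here. Rlbp1, Nfix, Emid1, Alcam, Mbp, AI606473, Kndc1 and the other unnamed probe set were not called there (limma adjusted p from 0.0577 to 0.0642).

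Hopx marks radial glia, and in primates the outer radial glia in particular. It had signals of 4709.6 and 1819.4 in dorsal spheres, against 411.0 and 220.6 in ventral spheres. The regions did not overlap, and in each region the sample numbered 1 was the higher. Dorsal spheres were 9.49-fold higher (log2 difference 3.25, SE 0.43, limma adjusted p = 0.0337). A second Hopx probe set gave 1050.2 and 302.0 in dorsal and 370.0 and 167.2 in ventral spheres, an overlap between regions and a log2 difference of 1.18 that did not pass the test (limma adjusted p = 1). Hopx was not confined to dorsal spheres: the spinal cord array read 8173.9.

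Rlbp1 encodes a retinaldehyde-binding protein known from the radial glia-like Müller cells of the retina. Its signals were 5660.0 and 3928.1 in dorsal spheres, against 538.8 and 766.3 in ventral spheres. Every dorsal value lay above every ventral value, and the fold was 7.48 (log2 difference 2.90, SE 0.43, limma adjusted p = 0.0367). The spinal cord array read 797.4 for Rlbp1. Adult neocortical spheres averaged 682.5 ± 265.2, striatal spheres 782.9 ± 203.7 and subventricular zone spheres 599.4 ± 184.4 (SD, n = 3 each), all below both dorsal samples.

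Nfix had signals of 7471.8 and 18945.6 in dorsal spheres, against 2597.7 and 3042.9 in ventral spheres, and was 4.44-fold higher (limma adjusted p = 0.0367). Another 2 of its 5 tested probe sets had adjusted p-values of 0.0528 and 0.0617, with log2 differences of 1.56 and 1.82. Emid1, a secreted protein with an EMI domain, was 3.34-fold higher, with 2294.7 and 3482.3 in dorsal spheres and 1006.5 and 764.2 in ventral spheres (limma adjusted p = 0.0367). Alcam, a cell adhesion molecule of growing axons, was 2.66-fold higher, with 4533.1 and 5756.4 in dorsal spheres and 2094.2 and 1932.1 in ventral spheres (limma adjusted p = 0.0367), and its 3 other probe sets had log2 differences from 0.90 to 1.23 without a call. In all 3 genes the regions did not overlap. The call for Mbp, the myelin basic protein gene, rests on a probe set without a detection call on the 4 arrays. Its signals there were 171.1 and 138.4 in dorsal and 11.9 and 49.7 in ventral spheres, so no fold is given, and the other Mbp probe sets were not called.

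Lhx8 gave 1.1 and 5.0 in dorsal spheres, where it was not detected, against 607.8 and 5326.2 in ventral spheres. Dorsal spheres were at least 41.7-fold lower, a bound that sets each dorsal array to the dimmest probe set detected on both dorsal arrays where Lhx8 itself is dimmer (log2 difference -5.86, SE 0.68, limma adjusted p = 0.0211). The transcript AI606473, which starts beside it, was likewise not detected in dorsal spheres. Its signals were 11.6 and 10.7 in dorsal and 298.2 and 1950.1 in ventral spheres, and it was at least 18.1-fold lower (limma adjusted p = 0.0367). For both, ventral sample 2 was higher than ventral sample 1. The spinal cord array read 2.9 for Lhx8 and 92.2 for AI606473.

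Six3 had signals of 93.1 and 131.3 in dorsal spheres, against 1429.1 and 1675.3 in ventral spheres. The regions did not overlap, and within each the samples differed far less than the regions did. Dorsal spheres fell by 3.43 on the log2 scale (SE 0.44, limma adjusted p = 0.0337). The spinal cord array read 92.8 for Six3. The divergent antisense transcript Six3os1 followed the same order, with 6.9 and 65.5 in dorsal and 954.6 and 463.0 in ventral spheres, and just missed the test (at least 10.6-fold lower, limma adjusted p = 0.0631).

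The remaining named calls are genes of signalling and metabolism. Kndc1, a Ras exchange-factor-like protein of neurons, had 261.7 and 283.4 in dorsal and 2001.4 and 2970.6 in ventral spheres, and dorsal spheres fell by 2.96 on the log2 scale (limma adjusted p = 0.0367). Abat encodes GABA transaminase, which breaks down the transmitter of the ventral forebrain's neurons. It had 608.3 and 864.7 in dorsal spheres, against 2881.3 and 3909.5 in ventral spheres (log2 difference -2.09, limma adjusted p = 0.0337), and a second probe set gave -1.42 without a call. Thsd7a, a thrombospondin-repeat protein, had 503.7 and 581.9 in dorsal and 1814.6 and 3109.5 in ventral spheres (dorsal spheres were lower, limma adjusted p = 0.0367). The 2 probe sets without a gene name here had 3124.3 and 3035.9 in dorsal and 13871.9 and 18843.1 in ventral spheres (4.93-fold lower), and 4302.9 and 3633.0 in dorsal and 10205.2 and 13870.4 in ventral spheres (2.84-fold lower). None of these regions overlapped. The spinal cord array read 5527.8 for Kndc1, 5094.6 for Abat and 6053.6 for Thsd7a, each above both ventral samples. It read 17401.4 and 12250.4 for the 2 probe sets without a gene name, between the ventral samples.

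The calls depended on which samples were fitted. Without dorsal sample 1 the test called 51 higher and 43 lower, without dorsal sample 2 it called 5 and 16, without ventral sample 1 it called 137 and 64, and without ventral sample 2 it called 1 and 3. With only the samples numbered 1 it called 20, among them 4 of the 14 (Hopx, Nfix, Mbp and Lhx8), and with only those numbered 2 it called 300, among them 13 of the 14. The fits on a single number hold 1 dorsal and 1 ventral array, which are assumed to vary like the other groups. The 14 calls were absent when the 4 arrays were fitted alone or with array weights, both of which gave 0 calls.

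**Figure D2:**
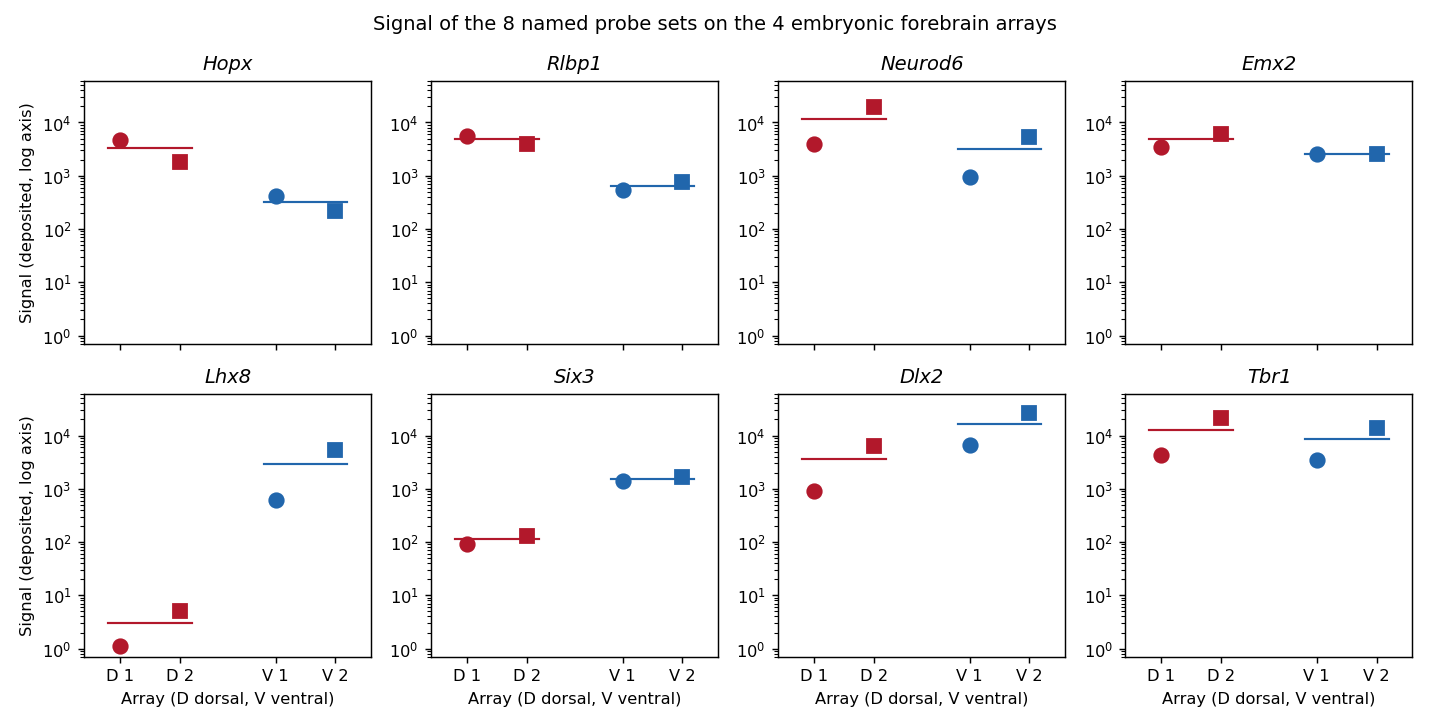
Deposited signal (log axis) of 8 regional probe sets on the dorsal (D, red) and ventral (V, blue) arrays of number 1 (circles) and number 2 (squares), with lines at the mean of each region. In Hopx, Rlbp1, Lhx8 and Six3 both arrays of a region lie clear of both arrays of the other. Emx2 and Dlx2 also do not overlap, with the nearest Dlx2 arrays at 6353.0 (D 2) and 6685.1 (V 1). Neurod6 and Tbr1 overlap and differ by 2.32 and 2.08 on the log2 scale between numbers.

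The other 4 regional probe sets did not pass the test, in which the sample number was not a term. With the number as a replicate block, Neurod6 passed in both fits run and Dlx2 in 1 of them, as given below. Emx2, a homeodomain factor of the cortical field, had 3490.5 and 6206.2 in dorsal spheres, against 2577.7 and 2546.2 in ventral spheres (1.91-fold, limma adjusted p = 0.964). Neurod6, a factor of cortical projection neurons, had 3995.8 and 19747.0 in dorsal and 958.4 and 5382.4 in ventral spheres (4.08-fold, limma adjusted p = 0.799). Its difference was 2.09 within number 1 and 1.97 within number 2, and the regions overlapped because number 2 was higher in each region. Tbr1, a factor of early-born cortical neurons, had 4349.7 and 21414.3 in dorsal and 3466.0 and 13862.5 in ventral spheres (1.47-fold, limma adjusted p = 1). Dlx2, a factor of ventral progenitors, had 910.1 and 6353.0 in dorsal and 6685.1 and 26461.6 in ventral spheres (5.16-fold lower in dorsal, limma adjusted p = 0.881). It was lower in dorsal spheres by 2.78 within number 1 and by 1.96 within number 2. Leaving out 1 sample at a time moved the log2 difference to between 0.84 (without ventral sample 1) and 3.22 (without ventral sample 2) for Neurod6, and to between -3.73 (without dorsal sample 2) and -1.01 (without dorsal sample 1) for Dlx2.

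Because the numbers differed so widely, differences were also counted within number. A probe set met the paired 2-fold rule when the regions differed by at least 1 on the log2 scale in the same direction in number 1 and in number 2 and the probe set was detected on both arrays of the higher region. This is a description with no test. It was met by 180 probe sets higher in dorsal spheres (0.511% of those tested) and 359 lower (1.02%). With 1 probe set per gene, limma called 3 of 14716 genes higher (0.0204%) and 5 lower (0.034%), and by the paired rule 89 of 14716 genes were higher (0.605%) and 160 lower (1.09%). Across the 35211 probe sets, which are not independent, the dorsal minus ventral difference in number 1 had a correlation of 0.149 with that in number 2. Both dorsal signals lay above both ventral signals for 10.2% of probe sets and below them for 13.3%. Genes below are counted by the probe set with the highest mean signal.

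**Figure D3:**
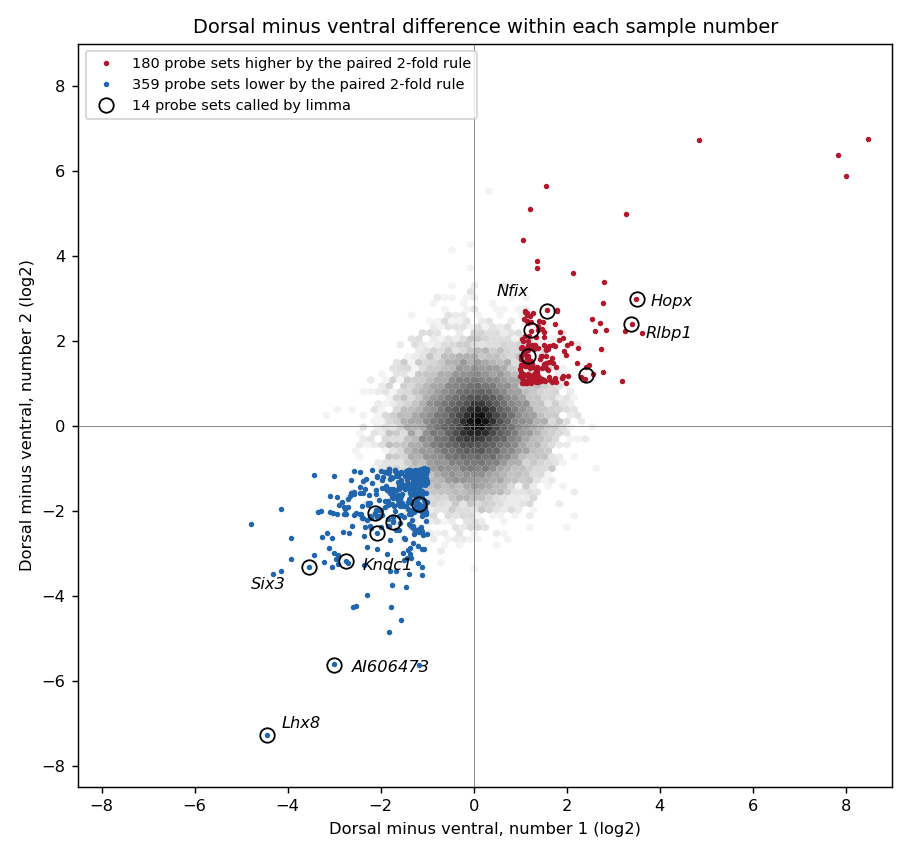
Dorsal minus ventral log2 difference within number 1 (x axis) and within number 2 (y axis) for the 35211 tested probe sets (grey shading, denser is darker), with the 180 higher and 359 lower by the paired 2-fold rule in red and blue and the 14 limma calls circled. Lhx8 lies at -4.44 and -7.29, and Hopx at 3.50 and 2.99.

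Among 15 dorsal progenitor transcription factors, 7 were higher in dorsal spheres by the paired rule and none lower, and 12 were higher in both numbers by any margin. The share of all genes higher in both numbers by any margin was not computed. The median log2 difference was 1.11, beside 0.10 over all genes, and none of the 15 passed the limma test. Dmrt3 and Neurog2 were among the 7. Dmrt3, a doublesex-family factor of the medial pallium, had 3569.6 and 9520.5 in dorsal and 522.2 and 1332.6 in ventral spheres (7.17-fold, limma adjusted p = 0.603). Its relative Dmrta2, which is not on the list, had 2430.4 and 5390.2 in dorsal and 329.3 and 1181.7 in ventral spheres (5.87-fold, limma adjusted p = 0.67), so neither gene's regions overlapped. Neurog2, the proneural factor of glutamatergic progenitors, had 749.8 and 11066.0 in dorsal and 57.7 and 2503.0 in ventral spheres, and here dorsal sample 1 lay below ventral sample 2.

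Pax6, which patterns pallial progenitors, had 3065.9 and 6330.0 in dorsal and 1166.5 and 2124.3 in ventral spheres (2.92-fold, limma adjusted p = 0.469). Emx1, the other Emx factor, had 399.8 and 1411.8 in dorsal and 171.1 and 359.8 in ventral spheres (2.99-fold, limma adjusted p = 0.787). The regions did not overlap in either gene. Fezf2, a factor of deep-layer projection neurons, had 537.7 and 5005.5 in dorsal and 148.2 and 989.9 in ventral spheres. Otx1, a homeobox gene of the anterior brain, had 416.3 and 690.0 in dorsal and 146.6 and 230.4 in ventral spheres. Dmrta1 had 1990.0 and 1069.6 in dorsal and 423.7 and 394.9 in ventral spheres. These 3 completed the 7, and of them only Fezf2 overlapped between regions. Neurog1 went in opposite directions, -0.80 in number 1 and 2.84 in number 2. Within number 1, 7 of the 15 were at least 2-fold higher, and within number 2, 13 were, beside 3.64% and 8.35% of all genes.

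Genes of the cortical excitatory lineage were less uniform. Of 14 tested, 3 met the paired rule as higher in dorsal spheres (Neurod6, Neurod2 and Sla) and none as lower, the median difference was 0.91, and none passed the limma test. Neurod2 had 4591.0 and 18852.3 in dorsal and 2080.7 and 6920.1 in ventral spheres. Eomes, the marker of intermediate progenitors, had 171.5 and 9867.2 in dorsal spheres, against 196.1 and 1681.9 in ventral spheres, so that its regional difference was -0.11 within number 1 and 2.63 within number 2. Within number 1, 3 of the 14 members (21.4%) were at least 2-fold higher and 2 (14.3%) at least 2-fold lower, beside 3.64% and 5.01% of all genes. Within number 2, 10 (71.4%) were higher and 0 lower, beside 8.35% and 4.91%. Tbr1 was detected on all 4 arrays, ventral ones included, and its lowest signal was 3466.0, in ventral sample 1.

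Ventral transcription factors gave the widest separation. Of 18 tested (of 22 listed), 2 fell in the limma test, Lhx8 and Six3, none was called higher, and 11 were lower in dorsal spheres by the paired rule. The median log2 difference was -2.45. The Dlx homeobox genes, which specify GABAergic neurons, were all among the 11. Dlx5 had 269.3 and 1299.8 in dorsal and 2311.1 and 11694.4 in ventral spheres, with differences of -2.92 and -3.05 within number and no overlap between regions (limma adjusted p = 0.401). Dlx1 had 408.8 and 3763.0 in dorsal and 3670.8 and 16864.4 in ventral spheres, where dorsal sample 2 lay just above ventral sample 1. Dlx6 had 150.3 and 135.8 in dorsal and 372.5 and 1708.1 in ventral spheres.

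Factors of particular ventral lineages followed. Isl1, a LIM-homeodomain factor of striatal projection and cholinergic neurons, had 61.0 and 894.4 in dorsal spheres, against 1803.5 and 11026.0 in ventral spheres on 1 of its 2 probe sets (limma adjusted p = 0.319). Ebf1, a factor of early striatal neurons, had on 1 of its 5 tested probe sets 19.6 and 465.7 in dorsal and 377.7 and 5276.3 in ventral spheres. Lhx6, the factor of interneurons born in the medial eminence, had 245.8 and 2244.6 in dorsal and 2885.8 and 9940.7 in ventral spheres. Isl1 and Lhx6 did not overlap between regions and Ebf1 did. Vax1, a homeobox gene of the ventral forebrain, had 119.1 and 208.7 in dorsal and 755.1 and 2402.7 in ventral spheres. Gbx1, another, was not detected in dorsal spheres, with 46.8 and 19.6 there and 238.8 and 928.6 in ventral spheres. On the same probe sets the spinal cord array read 6816.9 for Isl1 and 6804.7 for Ebf1, but 63.5 for Lhx6 and 19.5 for Vax1.

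Some ventral factors did not meet the paired rule. Gsx2, an upstream factor of the lateral eminence, had 210.0 and 107.8 in dorsal and 304.6 and 989.3 in ventral spheres. There was no overlap, with differences of -0.42 within number 1 and -2.82 within number 2 (limma adjusted p = 1). Olig2, a factor of oligodendrocyte and ventral progenitors, had 11372.9 and 108.2 in dorsal and 7978.7 and 1035.0 in ventral spheres, and thus followed the number. It fell in number 2 (log2 difference -4.72, limma adjusted p = 0.00418, in the comparison of numbers). Sp8 and Nkx6-2 differed by 0.00 and 0.26 between regions. Nkx2-1, the medial eminence factor, was not among the tested probe sets.

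GABAergic and striatal neuron genes were lower in dorsal spheres as a list but without a limma call. Of 17 tested (of 21 listed), 9 were lower by the paired rule and 0 were higher, with a median of -1.30. By any margin, 16 were lower in both numbers, a count for which the share of all genes was not computed. Gad1 and Gad2 encode the enzymes that make GABA. Gad1 had 829.8 and 1877.0 in dorsal spheres, against 6609.7 and 7310.0 in ventral spheres (5.17-fold lower in dorsal, limma adjusted p = 0.417). Gad2 had 681.0 and 6072.4 in dorsal and 13017.6 and 25206.8 in ventral spheres on its brighter probe set, 8.26-fold lower (limma adjusted p = 0.671), and its second probe set behaved alike. The regions did not overlap for either gene.

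Neuropeptides of ventral-born neurons moved in the same direction. Somatostatin, Sst, had 809.7 and 1284.7 in dorsal and 6704.8 and 4466.7 in ventral spheres (limma adjusted p = 0.0618). Neuropeptide Y, Npy, had 222.6 and 630.5 in dorsal and 1086.0 and 2090.4 in ventral spheres, and the enkephalin precursor Penk 97.5 and 268.9 in dorsal and 1085.9 and 964.6 in ventral spheres. All 3 had no overlap. Tac1, the substance P precursor, had 319.3 and 146.8 in dorsal and 793.1 and 9205.9 in ventral spheres, with differences of -1.18 and -5.64 within number. The dopamine receptor gene Drd2 was not detected in dorsal spheres, with 1.2 and 7.9 there and 215.6 and 204.8 in ventral spheres, whereas Drd1 differed by -0.32. The vesicular GABA transporter Slc32a1 and the receptor Erbb4 were the other members lower by the paired rule.

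**Figure D4:**
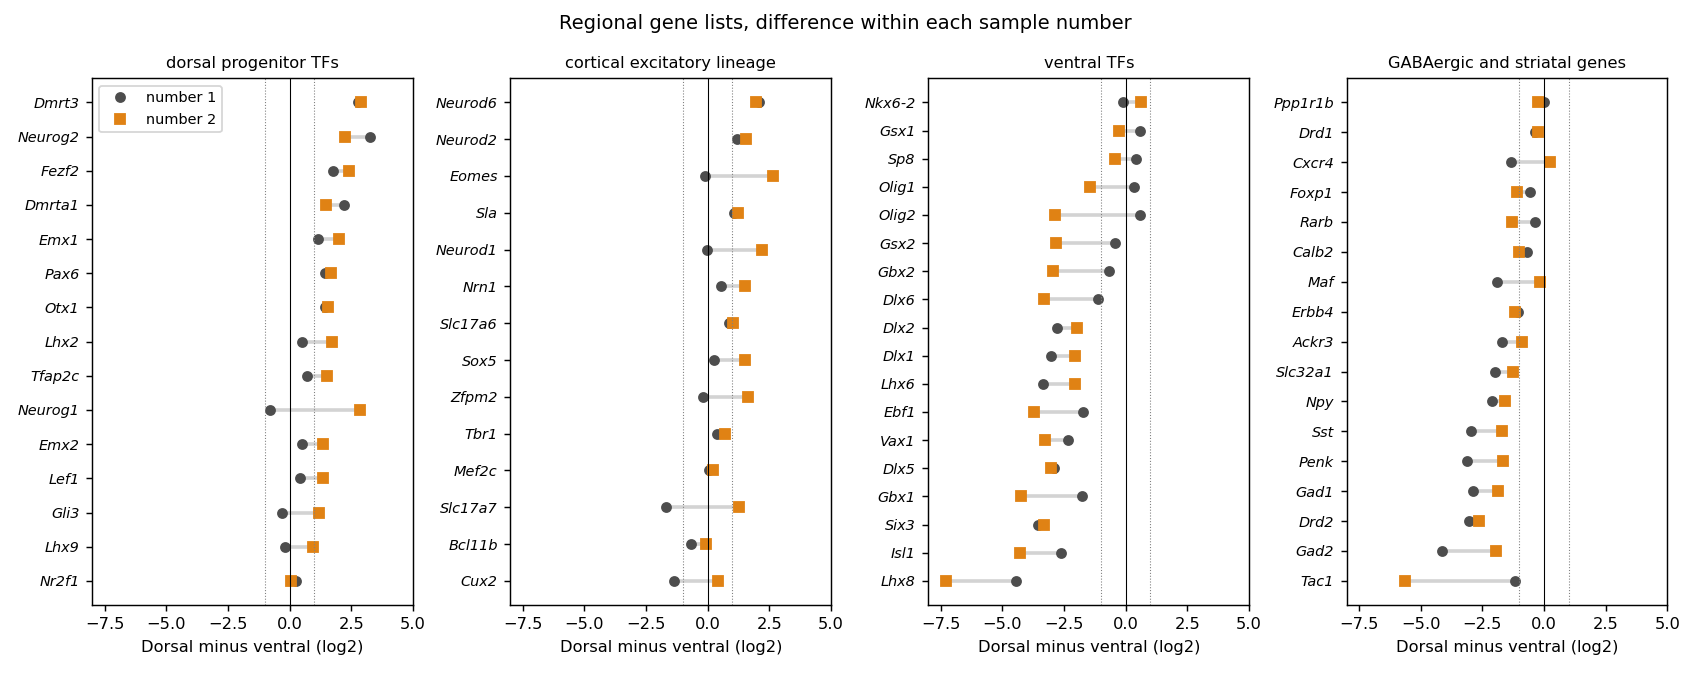
Dorsal minus ventral log2 difference of each tested member of 4 regional gene lists (TFs, transcription factors), within number 1 (grey circles) and within number 2 (orange squares), ordered by the mean; dotted lines mark 2-fold. None of the 18 ventral factors or 17 GABAergic and striatal genes is at least 2-fold higher in either number, and in the dorsal and cortical lists number 2 mostly shows the wider difference.

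Some genes lower in dorsal spheres were neighbours. Among 218 distinct genes lower in dorsal spheres by the paired rule on any probe set, 11 pairs lay within 20000 bases of each other on GRCm38.p6. They included Lhx8 with AI606473, Six3 with Six3os1, Dlx1 with Dlx2, Dlx5 with Dlx6 and Dlx6os1, and Kndc1 with Adgra1. In 5 of the 11 pairs the genes overlap. Among the 129 genes on the higher side there was 1 such pair, Ccn4 with Ndrg1. The share of all genes with so close a neighbour was not computed. Signals of overlapping transcripts are kept apart only as far as the probes are specific to each.

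Dorsal midline Wnt and BMP genes differed more widely in number 2. Of 18 tested (of 21), 2 met the paired rule as higher in dorsal spheres and none as lower, with a median of 0.84 and no limma call. Rspo3, a secreted amplifier of Wnt signalling at the cortical hem, had 447.8 and 2410.0 in dorsal and 48.4 and 458.3 in ventral spheres (5.94-fold, limma adjusted p = 0.717). Rspo1, its relative, had 96.8 and 1216.9 in dorsal and 33.1 and 362.9 in ventral spheres. Dorsal sample 1 lay below ventral sample 2 for both. Within number 1, 3 of the 18 (16.7%) were at least 2-fold higher in dorsal spheres, and within number 2, 12 (66.7%), beside 3.64% and 8.35% of all genes. The Wnt targets Axin2 and Nkd1 had higher signals in dorsal spheres within both numbers, without passing the test.

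In the Sonic hedgehog pathway no member of 10 tested passed either criterion. Shh itself, the ligand, had 71.8 and 4.2 in dorsal spheres, against 134.5 and 625.6 in ventral spheres (log2 difference -2.47, limma adjusted p = 0.707). Both dorsal signals lay below both ventral signals, and the difference was -0.65 within number 1 and -4.29 within number 2. Gli1, a transcriptional readout of the pathway, was not detected in dorsal spheres and had 13.2 and 166.8 in ventral spheres. Ptch1, the receptor and a target, had 10678.0 and 5788.5 in dorsal and 11990.2 and 12232.2 in ventral spheres. The co-receptors Gas1, Cdon and Boc, which are known to be higher where pathway activity is low, differed by 1.36, 1.29 and 1.07, with 0.03, 0.34 and 0.69 within number 1 and 2.69, 2.23 and 1.44 within number 2.

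Genes shared by progenitors of both regions stayed close. Of 20 radial glia and neural stem genes, Hopx alone passed the limma test or the paired rule, and the median was 0.20. Fabp7, the radial glial fatty acid-binding protein, had 46932.4 and 36125.8 in dorsal and 44977.6 and 36818.2 in ventral spheres. Hes5, a Notch target, had 8185.9 and 7699.5 in dorsal and 5197.5 and 5979.7 in ventral spheres (log2 difference 0.59, limma adjusted p = 1). No member passed either criterion among 17 cell cycle genes (median 0.16) and 13 proneural and Notch genes (median 0.16). Of 18 young neuron genes, Nhlh1 met the paired rule, and the median was -0.13. Dcx, a microtubule protein of migrating neurons, had 13007.6 and 27977.8 in dorsal and 16583.5 and 33896.7 in ventral spheres.

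Glial lists held single exceptions. Of 16 astrocyte genes, Aldoc met the paired rule, and none was called. Aldoc, an aldolase of astrocytes and radial glia, had 10193.6 and 8215.6 in dorsal and 4057.6 and 1692.0 in ventral spheres (log2 difference 1.87, limma adjusted p = 0.0634). Gfap, the astrocyte filament protein, had 744.7 and 2.3 in dorsal spheres, against 3.8 and 2.5 in ventral spheres, so that dorsal sample 1 alone showed a signal. None of 13 oligodendrocyte lineage genes met the paired rule or was called on its counted probe set. Within number 1, 5 of these 13 were at least 2-fold higher in dorsal spheres and 0 lower. Within number 2, 0 were higher and 5 lower (38.5%), beside 4.91% of all genes lower there and 3.64% higher within number 1.

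Retinoid genes went both ways. Of 11 tested (of 13), Rlbp1 and Dhrs3 were higher in dorsal spheres by the paired rule, and Crabp1 and Rxrg lower. Dhrs3, which reduces retinaldehyde to retinol, had 200.4 and 481.7 in dorsal and 41.5 and 54.4 in ventral spheres (limma adjusted p = 0.433). Rxrg, a retinoid X receptor of striatal neurons, was not detected in dorsal spheres, with 69.1 and 122.1 there and 413.4 and 648.6 in ventral spheres (limma adjusted p = 0.544). Crabp1, a cytoplasmic retinoic acid-binding protein, had 435.4 and 1523.5 in dorsal and 1222.0 and 6453.7 in ventral spheres. Aldh1a3, a retinoic acid-synthesising enzyme of the lateral eminence, was not detected in dorsal spheres and had 187.1 and 982.7 in ventral spheres.

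The widest margins by the paired rule belonged partly to genes of other tissues. Ttr, transthyretin, the chief product of choroid plexus epithelium, had 9891.9 and 34990.7 in dorsal spheres, against 2.0 and 316.7 in ventral spheres on 1 of its 4 tested probe sets (log2 difference 7.62, SE 2.28, limma adjusted p = 0.582). It was high in both dorsal samples. On the same probe set, adult neocortical sample 3 read 30257.9, against 24.6 and 16.2 in adult neocortical samples 1 and 2. The spinal cord array read 4573.9. The SE and p-value for Ttr use a spread pooled within groups, the adult neocortical group included. The part of adult neocortical sample 3 in that spread was not tested. Clic6 and Kcne2, also choroid plexus genes, had 17.6 and 55.3 in dorsal sample 1 and 1641.9 and 1473.3 in dorsal sample 2, and at most 68.3 in ventral spheres. Dcn, the matrix proteoglycan decorin of mesenchymal cells, had 322.0 and 2212.5 in dorsal spheres, against 10.9 and 48.7 in ventral spheres, where it was not detected (limma adjusted p = 0.0618). Of the 10 mesenchymal markers, Dcn and Col3a1 met the paired rule as higher, beside 0.605% of all genes. Within number 2, 8 of the 10 were at least 2-fold higher in dorsal spheres, and within number 1, 3 were, beside 8.35% and 3.64% of all genes. The chemokine gene Cxcl12 had 221.3 and 3524.0 in dorsal and 10.1 and 333.8 in ventral spheres on the probe set that met the paired rule. Its brighter probe set did not meet the rule, with 118.2 and 3912.7 in dorsal and 150.3 and 363.1 in ventral spheres. There the difference was -0.23 within number 1 and 3.43 within number 2. The part of the mesenchymal and choroid plexus signal in the Cxcl12 difference was not tested.

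Further genes with wide margins were not on the marker lists. Eya1, a transcriptional co-activator and phosphatase, had 159.9 and 136.3 in dorsal and 5.2 and 10.1 in ventral spheres on its dimmest probe set (at least 4.64-fold, limma adjusted p = 0.0655), but its 2 brighter probe sets differed by only 0.38 and 0.73 within number 2. Nupr1, a stress-induced chromatin protein, had 1051.0 and 195.2 in dorsal and 65.2 and 25.1 in ventral spheres. On the lower side, Adarb2, an RNA-editing family member found in interneurons, had 54.4 and 115.3 in dorsal and 760.7 and 1372.0 in ventral spheres (limma adjusted p = 0.0946). Zfhx3, a homeobox zinc-finger factor of striatal neurons, had 107.8 and 563.6 in dorsal and 1108.5 and 4961.4 in ventral spheres. The spinal cord array read 966.8 for Adarb2 and 6970.1 for Zfhx3. The regions did not overlap for any of these 4 on the probe sets given. Calml4, Slc27a2 and AW551984 also stood among the 12 widest margins in their directions.

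Adult spheres were compared to see whether the embryonic regional differences have counterparts in the neocortex and striatum, the adult structures of the corresponding regions. The embryonic dorsal minus ventral difference was tested against the adult neocortex minus striatum difference, which shares no array with it. The limma test called 0 of 35211 probe sets (0.0%), with 2589 at an unadjusted p under 0.05 (7.35%) and a smallest adjusted p of 0.081. Across probe sets the embryonic and adult differences had a correlation of 0.00548. Between adult neocortical and striatal spheres the test called 166 probe sets (0.471%).

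Six3 was lower on the dorsal side at both ages. It fell in embryonic dorsal spheres by 3.43 on the log2 scale, and in adult neocortical spheres by 2.99 (120.1 ± 68.08 in neocortical and 992.8 ± 236.2 in striatal spheres, SD, n = 3 each, limma adjusted p = 0.0032). The difference between the ages was -0.44 (limma adjusted p = 0.881). Of the 359 probe sets lower in dorsal spheres by the paired rule, 4 were also called lower in adult neocortical spheres, beside 19 of all tested (0.054%). They were Six3, Six3os1, Vax1 and a probe set with no gene name here, and they are named because the count is small. Six3os1 averaged 40.23 ± 28.18 in neocortical and 757.4 ± 362.2 in striatal spheres (limma adjusted p = 0.0042). Vax1 averaged 3.133 ± 1.38 in neocortical and 186.0 ± 135.1 in striatal spheres (limma adjusted p = 0.029).

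Most of the other regional genes showed no adult call. Lhx8 was not detected on any adult array, with 3.533 ± 0.5033 in neocortical and 4.267 ± 1.266 in striatal spheres, and its embryonic minus adult difference, -5.73 on the log2 scale, did not pass the test (limma adjusted p = 0.0828). Rlbp1 differed by 2.90 in embryonic and by -0.33 in adult spheres, a difference of 3.23 (limma adjusted p = 0.0883). Nfix differed by 2.15 in embryonic and by -0.36 in adult spheres (difference 2.51, limma adjusted p = 0.0883). Kndc1 was lower in embryonic dorsal spheres but had 19250 ± 4682 in adult neocortical and 9596 ± 4423 in striatal spheres (difference -3.97, limma adjusted p = 0.081). Hopx was 3.25 higher in embryonic dorsal spheres and 0.85 higher in adult neocortical spheres (8943 ± 1688 in neocortical and 4678 ± 1148 in striatal spheres, limma adjusted p = 0.51 for the adult difference). Emx2 had the opposite order by age, with 0.93 in embryonic and -1.43 in adult spheres, neither of which passed the test.

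Over the paired-rule probe sets, 31 of the 359 lower in dorsal spheres (8.64%) were at least 1 log2 unit lower in adult neocortical spheres and 9 (2.51%) at least 1 unit higher. Of the 180 higher in dorsal spheres, 14 (7.78%) were at least 1 unit higher in neocortical spheres and 5 (2.78%) lower. Over all tested probe sets these shares were 2.2% lower and 2.37% higher.

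**Figure D5:**
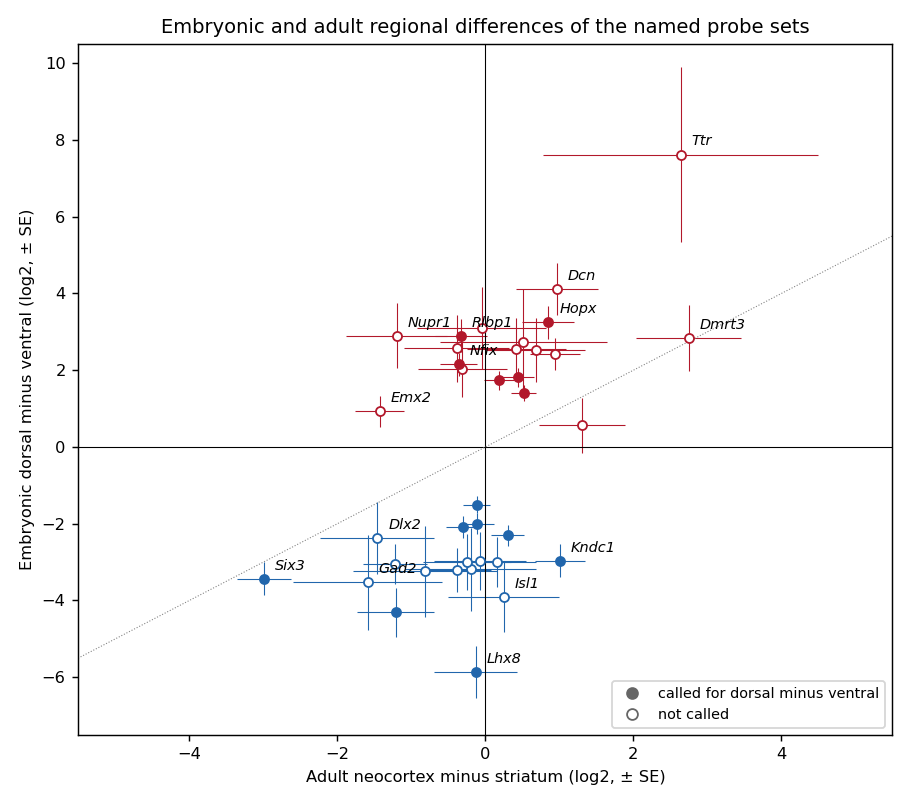
Embryonic dorsal minus ventral difference (y axis) against adult neocortex minus striatum difference (x axis), both log2 with SE from limma, for the probe sets named for the regional comparison; filled points were called between embryonic regions and the dotted line marks equal differences. Six3 lies near that line at -2.99 (adult) and -3.43 (embryonic), and Lhx8 lies near 0 for the adult difference.

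The spread within regions had its own content. In a model of region and number on the 4 arrays, limma called 2294 probe sets higher (6.52%) and 2974 lower (8.45%) in the samples numbered 2. That model left 1 residual degree of freedom for each probe set before limma shared the spread across probe sets. The p-values between numbers thus rest on little replication. The genes with the widest differences included the embryonic globin genes. Hbb-y had 39059.2 and 41162.1 in the dorsal and ventral samples numbered 2, against 1.5 and 22.9 in those numbered 1 (limma adjusted p = 9.47e-06). The endothelial junction gene Cldn5 had 2395.8 and 1863.8 in number 2, against 9.0 and 12.6 in number 1. On the lower side, the immediate early gene Fos had 96.9 and 33.8 in number 2, against 9453.1 and 8672.7 in number 1, and the chemokine Cxcl1 had 6.5 and 29.2, against 9695.2 and 7864.4. Egr1 and Egr2, further immediate early genes, Fbln2 and Dhh were the other lowest, and Hba-x, Hbb-b2, Aplnr and Vtn the other highest.

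Neural genes differed by number too. With 1 probe set per gene, 8.07% of all genes were higher and 11.1% lower in the samples numbered 2. Of 18 young neuron genes, 16 rose in the samples numbered 2 and none fell, with a median of 0.85. Of 14 cortical excitatory genes 9 rose, of 15 dorsal progenitor factors 8 rose, and of 18 ventral factors 6 rose and 2 fell. Of 17 cell cycle genes, 13 fell and none rose (median -0.72), and of 20 radial glia genes, 13 fell and 1 rose (median -0.80). Egfr, the receptor for the growth factor used to expand spheres in common protocols, had 121.8 and 278.7 in number 2, against 6909.7 and 8236.8 in number 1. Six3 and Rlbp1 did not pass the test between numbers (limma adjusted p = 0.701 and 0.896), and Hopx fell by 1.15 in number 2 (limma adjusted p = 0.0387).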

How the data were processed

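Total RNA of 14 neurosphere samples was hybridised to 1-colour Affymetrix Mouse Genome 430 2.0 arrays. Per the file headers, the authors deposited a linear signal intensity and a detection p-value for each of 45101 probe sets; for the signal algorithm's version and its scaling target: not given in the sources used here. The labels' design text names a GeneSpring analysis, which was not used. Median signals ran from 222.1 to 334.8, and the number of arrays limits the precision.

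Signals were taken as log2(signal + 26.995), a pseudocount of 0.1 times the median of the array medians, and centred on each array's median. Probe sets detected (p under 0.05) on at least 2 of 14 arrays were kept: 35211 tested, 9826 not tested, and 64 controls left out. All 14 arrays entered limma 3.58.1 (R 4.3.3) with 6 group means and a variance trend, and p-values were adjusted by Benjamini-Hochberg across the 35211. The sample numbers were compared on the 4 forebrain arrays with region in the model. Because of the pseudocount, fold changes on this log2 scale understate those of dim probe sets. The fit was tested on simulated data first.

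Genes come from the platform annotation table, which can be old: 34958 probe sets had 1 symbol, 932 several and 9211 none. Promoters come from RefSeq GRCm38.p6. Named probe sets were 8 given ones, all calls, the 12 widest margins by the paired rule in each direction and the 6 widest by number; other list members, and those with small counts, were named after their values were seen. The members and lists were chosen with earlier results of these data known. Of 291 listed genes in 22 lists, those without a tested named probe set were left out. Alternatives changed the pseudocount, scaling, detection filter, variance model, samples fitted and number block.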

Additional observations from a re-analysis of the deposited data

Results flagged for a closer look

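The embryonic spinal cord array, which entered no regional comparison, carried erythroid signal above every adult array. Hbb-y, an embryonic beta-type globin, had a signal of 20069.2 there on 1 of its probe sets, and the highest adult array read 92.0. Hba-x, the embryonic alpha-type globin, had 3102.0, and the highest adult array read 23.8. Alas2, the erythroid enzyme of haem synthesis, had 979.9, and the highest adult array read 163.0. The cause was not tested.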

How the results depend on the processing

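Calls between dorsal and ventral spheres (6 higher, 8 lower) were 23 lower with a pseudocount of 0.4 times the median. They were 1 higher and 5 lower with quantile normalization or the values as deposited, all among the 14. Without the variance trend they were 2 higher and 6 lower. Of those 8, only 3 were among the 14: Lhx8, Six3 and a probe set without a gene name. There were 0 in each direction with array weights or with the 4 forebrain arrays alone. Leaving out 1 sample at a time gave 1 to 137 higher and 3 to 64 lower. Only the number 1 pair gave 13 lower, and only the number 2 pair 204 higher and 96 lower. The difference from the adult difference (0 calls) gave 5 higher and 56 lower with the larger pseudocount, 2 lower without the trend, 0 to 130 higher and 0 to 62 lower with 1 sample left out, 11 and 36 with the number 1 pair, and 242 and 91 with the number 2 pair. The paired rule gave 82 higher and 196 lower with the larger pseudocount, and 75 and 174 when every dorsal array had to differ 2-fold from every ventral array. Tbr1 ranged from -0.57 to 1.68 with 1 sample left out, and turned to -0.57 without dorsal sample 2 (limma adjusted p = 0.855) and to -0.40 without ventral sample 1 (limma adjusted p = 0.89). The cause of these shifts was not tested. The counts of calls between numbers stayed within 1.5 times under every alternative run.

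The labels state no pairing by number, and with 2 pairs the deviations of same-numbered samples correlated at 0.577 over probe sets. With the number as a replicate block, the regional calls were 39 higher and 64 lower over all 14 arrays, which include all 14 calls. Over the 4 forebrain arrays they were 28 higher and 54 lower, which include 9 of the 14. Mbp, Emid1, Alcam, AI606473 and Thsd7a were not called there (limma adjusted p from 0.0516 to 0.363). With the block, Neurod6 passed the test (limma adjusted p = 0.0466 over 14 arrays and 0.00568 over 4). Dlx2 passed it over 4 arrays (0.0103) but not over 14 (0.214). The difference from the adult difference gave 221 higher and 167 lower with the block.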

Other observations

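Some listed genes differed between regions in opposite directions in the 2 numbers. Sox10 and Lhfpl3, genes of the oligodendrocyte lineage, differed by 1.31 and 1.91 within number 1 and by -1.75 and -1.38 within number 2. Aqp4, the astrocyte water channel, differed by -1.44 and 1.13, Wnt3a, a ligand of the cortical hem, by -1.46 and 1.40, and Slc17a7, a vesicular glutamate transporter, by -1.71 and 1.28. Twist1, a mesenchymal factor, differed by -1.33 and 2.61, and Hoxd8, a gene of the trunk, by -1.09 and 1.29. Several of these genes were dim. Sox10, Wnt3a, Slc17a7 and Hoxd8 were each detected on 1 array per region, and Twist1 on 1 ventral array. The highest signal on the forebrain arrays was 275.6 for Wnt3a, 216.0 for Slc17a7, 198.7 for Twist1 and 109.1 for Hoxd8.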
